A study of Mus musculus with 4 samples.

Results

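Expression of 10 hypoxia response genes was examined in RNA-Seq of mouse brain cells after tamoxifen given to delete Mgp in endothelium. The genes were chosen by symbol and were Hif1a, Epas1, Vhl, Egln1, Egln3, Adm, Bnip3, Ndrg1, Ankrd37 and Car9. All 10 were found among the 24873 genes of the deposited table. The 2 control libraries and 2 tamoxifen libraries came from Cdh5cre;Mgpflox/flox mice, in which tamoxifen activates a Cre recombinase driven by the VE-cadherin (Cdh5) promoter and removes the floxed Mgp gene. Both groups carried the same alleles. Mice of both groups are listed at 10 weeks of age, and the study's methods state that controls were littermates. Tamoxifen mice were given 5 daily injections of 75 mg/kg from that age, whereas control mice were given none. Effects of the drug itself and of the deletion therefore cannot be told apart. Cells were collected on day 9 and pooled from 3 mice for each library. The labels name the cells as Brain tdTomato+, whereas the study describes sorted CD31+CD45- cerebral endothelial cells (ECs). In the deposited table the libraries carry letters. The letter C was taken for control and the letter A for tamoxifen, although the labels hold no A. The p-values measure the spread between 2 pools in each group.

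Cells answer low oxygen through the hypoxia-inducible factors (HIFs). The alpha subunits HIF-1α (Hif1a) and HIF-2α (Epas1) pair with the stable beta subunit ARNT and bind short elements with the core letters ACGTG or GCGTG. When oxygen is present, prolyl hydroxylases of the EGLN family modify the alpha subunits, VHL binds the modified form, and the proteasome removes it. Control of the alpha subunits is therefore largely at the protein level, which RNA does not show. Brain endothelium is known for abundant Epas1, and several HIF target genes, among them Egln3 itself, feed back on the pathway.

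The deposited values were normalized counts, that is, read counts divided by a single factor per library. Each library held between 35387438 and 49799321 reads on genes, and a count of 3 reads, taken as the floor, equaled between 2.16 and 4.11 normalized counts. Differences were tested with limma on log2(normalized count + 1). The test took in the 20485 genes that averaged 10 normalized counts or more over the libraries, and p-values received a Benjamini-Hochberg (BH) adjustment over all of them. A gene was called when its adjusted p was under 0.05 and its log2 fold change was over 1 in size. This scale understates changes of genes with few reads. With 2 libraries against 2, the smallest p of an exact two-sided permutation test is 0.333.

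The marker genes showed that the groups differed in far more than the 10 hypoxia response genes. Mgp itself had 1094 and 1352 normalized counts in control libraries 1 and 2 and 945 and 909 in tamoxifen libraries 1 and 2, a log2 fold change of -0.39 that was not called (limma, BH-adjusted p = 0.0986). All 12 endothelial markers fell. Pecam1, which encodes CD31, had a log2 fold change of -2.85 and Cdh5 one of -2.84 (-1.89 and -1.90 under quantile normalization), and the summed level of the list was 1254512 to 1314016 normalized counts in the control and 104422 to 210961 in the tamoxifen libraries. The cell cycle list (8 of 8 genes higher) summed to 1204 to 1476 and 83670.4 to 87001, the pluripotency list (8 of 8 higher) to 69.9 to 114 and 40988 to 53440, and the neutrophil list (7 of 7 higher) to 232 to 297 and 81197 to 108979. Erythroid genes (7 of 7 higher) summed to 19224 to 39137 and 112680 to 173729, fibroblast genes (6 of 6 higher) to 2257 to 3213 and 59759 to 69745, and astrocyte genes (7 of 7 higher) to 28811 to 34332 and 147559 to 307668. Oligodendrocyte genes (5 of 6 higher) summed to 1103 to 1386 and 5345 to 5878, neuron genes (3 of 5 higher) to 942 to 1210 and 8518 to 12608, microglia and macrophage genes (2 of 6 higher) to 2446 to 3769 and 4434 to 5042, and pericyte and smooth muscle genes (1 of 7 higher) to 24237 to 42046 and 28374 to 58807. Genes of the stress of cell dissociation, such as Fos and Hspa1a, went the other way, with 5 of 6 lower and sums of 40560.4 to 49805 in the control and 11459 to 16052 in the tamoxifen libraries. The counts in these lists are of called genes, and among the 20485 genes tested 28.6% were called higher and 16.0% lower. Beside the share called higher, the microglia and macrophage list (2 of 6) was near it and the pericyte and smooth muscle list (1 of 7) below it. None of the listed markers was at 0 reads in any library. However, Utf1 (1 and 3 reads), Elane (5 and 1) and Sall4 (5 and 2) were under the floor in a control library. These genes and Mpo, Nanog, Zfp42, Mobp and Mag averaged under 10 normalized counts in the control libraries. They passed the filter on low values only through their tamoxifen libraries, so their p-values add no support beyond their reads. The part of these cell types in the results that follow was not tested, and in pooled cells a smaller share of ECs cannot be told apart from less RNA per EC.

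Among the 10 hypoxia response genes, 4 fell in the tamoxifen libraries (Epas1, Adm, Ndrg1 and Ankrd37), 2 rose (Egln3 and Car9), and 4 were not called (Hif1a, Vhl, Egln1 and Bnip3). The calls thus covered 60.0% of the members, against 44.7% of all genes tested. The 4 that fell compare with 16.0% of all genes tested, and the 2 that rose with 28.6%. By the adjusted p alone, 7 of 10 members passed, against 58.9% of all genes tested. All 10 members had control and tamoxifen libraries that did not overlap, which was also true of 82.3% of all genes tested. All 10 passed the filter on low values, Car9 only through its tamoxifen libraries. The members had a median log2 fold change of -0.45 with a range from -3.45 to 7.01, and the median of all genes tested was 0.05. The same 6 members were called, and the same 4 were not, under each of 14 alternative fits, which included every library left out in turn.

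**Figure D1:**
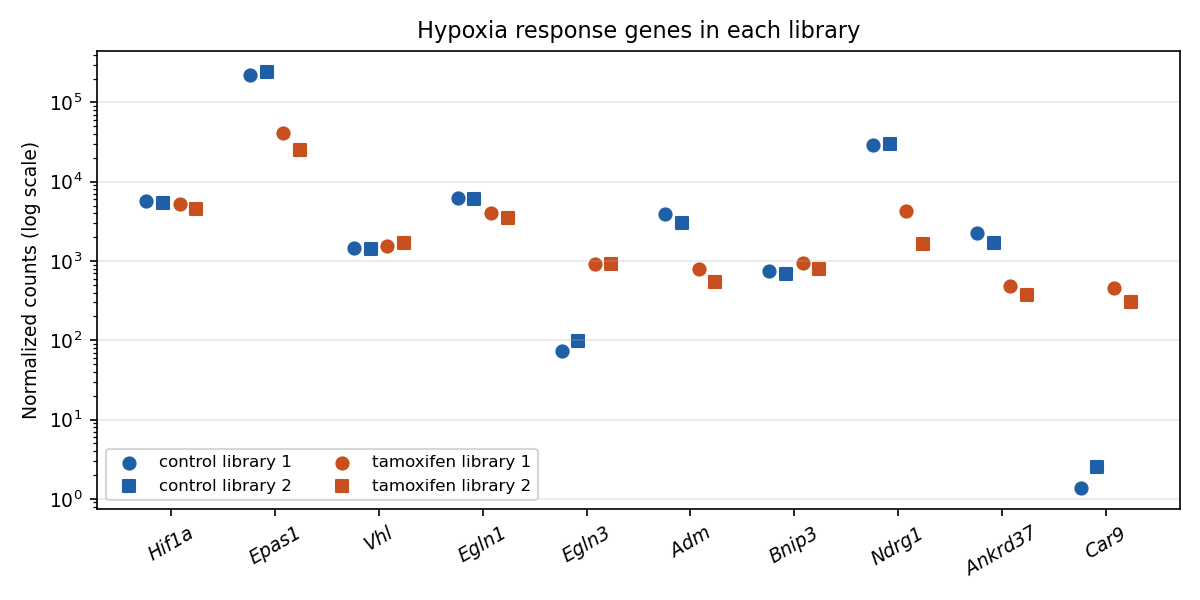
Normalized counts of the 10 hypoxia response genes (log scale) in control libraries 1 and 2 (blue) and tamoxifen libraries 1 and 2 (orange). Epas1, Ndrg1, Adm and Ankrd37 lie lower in both tamoxifen libraries, Egln3 and Car9 lie higher, and the control values of Car9 are 1.37 and 2.50 normalized counts.

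The HIF alpha subunits moved apart. Epas1 (chr17:87061087-87140838, GRCm39, plus strand) encodes HIF-2α. It had 223088 and 245141 normalized counts in control libraries 1 and 2 and 41131 and 24834 in tamoxifen libraries 1 and 2. Both tamoxifen libraries lay far below both control libraries, and tamoxifen library 2 was the lowest. Epas1 fell 7.32-fold, a log2 fold change of -2.87 (standard error 0.37, limma, BH-adjusted p = 0.000414). Quantile normalization brought this to -1.80.

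Hif1a (chr12:73948149-73996321, plus strand) encodes HIF-1α, the alpha subunit found in most cell types. It had 5778 and 5372 normalized counts without tamoxifen and 5246 and 4555 with it. The groups did not overlap, but the gap between the nearest libraries was small beside the spread within each group. The log2 fold change was -0.19 with a 95% interval from -0.56 to 0.18 (limma, BH-adjusted p = 0.332). The sign depended on the scaling of the libraries, with 0.28 when totals were made equal and 0.20 under quantile normalization. These scalings shifted the median of all genes tested by 0.47 and -0.25. Relative to that median, Hif1a was at -0.24 under the authors' scaling, -0.24 with equal totals and 0.40 after quantile normalization.

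The ratio of the alpha subunits within a library does not change when the library is multiplied by a single factor. For each Epas1 count there were 0.0259 and 0.0219 Hif1a counts without tamoxifen and 0.128 and 0.183 with it. Both tamoxifen ratios were above both control ratios, by 2.68 on the log2 scale or 6.42-fold (exact two-sided permutation test, p = 0.333, the smallest possible). Quantile normalization, which is not a single factor, brought the difference to 1.997 on the log2 scale, or 3.99-fold. Per kilobase of the canonical transcript, Hif1a was at 0.0209 and 0.0177 of Epas1 in the control and at 0.103 and 0.148 in the tamoxifen libraries. Epas1 thus remained the more abundant transcript in all 4 libraries. The 12 endothelial markers had a median log2 fold change of -2.91, close to that of Epas1. Set against the summed counts of these markers, Hif1a was also higher in both tamoxifen libraries, by 2.92 on the log2 scale. A rise of Hif1a in such a ratio is therefore not particular to Epas1.

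The genes of the oxygen sensors and of VHL did not move as a group. Egln1 (chr8:125635308-125676865, minus strand) encodes PHD2, the main prolyl hydroxylase that acts on HIF-1α in normal oxygen. It had 6224 and 6064 normalized counts without tamoxifen and 4007 and 3475 with it. The tamoxifen libraries were both lower, with a log2 fold change of -0.72 (standard error 0.16, limma, BH-adjusted p = 0.00522) that stayed under the size limit, so the gene was not called. With equal totals its log2 fold change was -0.25 and its adjusted p 0.130, and without tamoxifen library 2 the adjusted p was 0.0546.

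Egln3 (chr12:54225767-54250673, minus strand) encodes PHD3, a hydroxylase whose gene is itself a HIF target. It had 74.0 and 97.6 normalized counts without tamoxifen and 917 and 914 with it. The tamoxifen libraries were nearly equal to each other and both above the control libraries. Egln3 rose 10.7-fold, with a log2 fold change of 3.41 (standard error 0.28, limma, BH-adjusted p = 6.23e-05). Quantile normalization brought this to 2.60.

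Vhl (chr6:113600920-113608599, plus strand) encodes the protein that recognizes hydroxylated alpha subunits. It had 1445 and 1407 normalized counts without tamoxifen and 1534 and 1699 with it. The log2 fold change was 0.18 with a 95% interval from -0.19 to 0.55 (limma, BH-adjusted p = 0.355), and with equal totals it was 0.65 with an adjusted p of 0.0102. Within a library, there were 0.0119 and 0.0161 Egln3 counts for each Egln1 count without tamoxifen and 0.229 and 0.263 with it. This ratio was 17.5-fold higher in the tamoxifen libraries, or 4.13 on the log2 scale (exact two-sided permutation test, p = 0.333, the smallest possible), and 2.98 on the log2 scale after quantile normalization. Per kilobase, Egln1 remained above Egln3 in every library, and the ratio was at most 0.0264 in the control and at most 0.432 in the tamoxifen libraries.

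The directions of change were already known when the sequence before the genes was searched for the core letters of the HIF element. The search covered the 300 bases before the start of each member's canonical transcript. The windows were read from GRCm39 with GENCODE M39, on the strand of the gene, and ACGTG and GCGTG were searched on both strands. A CACGTG sequence counts as ACGTG on each strand. Of 16604 protein-coding genes of the table, 22.5% held ACGTG, 40.8% held GCGTG and 52.7% held either. Of the 10 members, 5 held ACGTG, 6 held GCGTG and 8 held either, with Vhl and Car9 as those without a match. The windows are shown for the rising genes Egln3 and Car9, for the falling genes Adm, Ndrg1 and Ankrd37, and for Bnip3, which was not called. Matches on either strand are in capitals.
Egln3, chr12:54250674-54250973, minus strand: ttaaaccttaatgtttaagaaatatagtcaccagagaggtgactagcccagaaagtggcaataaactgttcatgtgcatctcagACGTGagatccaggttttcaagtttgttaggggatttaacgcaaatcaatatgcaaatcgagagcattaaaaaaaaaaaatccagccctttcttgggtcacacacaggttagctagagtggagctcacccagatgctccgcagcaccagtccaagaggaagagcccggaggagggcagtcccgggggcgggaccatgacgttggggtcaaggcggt
Car9, chr4:43506666-43506965, plus strand: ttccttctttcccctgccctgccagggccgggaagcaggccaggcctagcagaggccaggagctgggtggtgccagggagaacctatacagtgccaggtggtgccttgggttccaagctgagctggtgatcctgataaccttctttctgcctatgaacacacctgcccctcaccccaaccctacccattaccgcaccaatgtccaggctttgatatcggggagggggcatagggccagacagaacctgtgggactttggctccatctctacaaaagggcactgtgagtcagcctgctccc
Adm, chr7:110226558-110226857, plus strand: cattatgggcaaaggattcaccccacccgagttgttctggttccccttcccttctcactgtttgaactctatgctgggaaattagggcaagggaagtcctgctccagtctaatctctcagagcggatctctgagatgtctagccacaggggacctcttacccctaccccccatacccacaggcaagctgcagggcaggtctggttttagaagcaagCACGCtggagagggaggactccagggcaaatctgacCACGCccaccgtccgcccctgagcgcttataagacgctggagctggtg
Ndrg1, chr15:66841803-66842102, minus strand: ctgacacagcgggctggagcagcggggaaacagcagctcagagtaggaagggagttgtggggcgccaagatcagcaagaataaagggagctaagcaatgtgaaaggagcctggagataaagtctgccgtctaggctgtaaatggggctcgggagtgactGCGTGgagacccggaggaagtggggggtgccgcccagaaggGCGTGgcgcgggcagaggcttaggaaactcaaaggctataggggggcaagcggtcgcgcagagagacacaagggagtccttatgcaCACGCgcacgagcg
Ankrd37, chr8:46452906-46453205, minus strand: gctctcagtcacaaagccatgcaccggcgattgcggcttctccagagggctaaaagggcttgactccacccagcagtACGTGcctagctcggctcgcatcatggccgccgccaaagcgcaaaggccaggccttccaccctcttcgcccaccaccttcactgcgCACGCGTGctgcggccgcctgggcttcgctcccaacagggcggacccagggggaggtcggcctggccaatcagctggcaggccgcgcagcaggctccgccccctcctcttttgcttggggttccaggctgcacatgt
Bnip3, chr7:138511254-138511553, minus strand: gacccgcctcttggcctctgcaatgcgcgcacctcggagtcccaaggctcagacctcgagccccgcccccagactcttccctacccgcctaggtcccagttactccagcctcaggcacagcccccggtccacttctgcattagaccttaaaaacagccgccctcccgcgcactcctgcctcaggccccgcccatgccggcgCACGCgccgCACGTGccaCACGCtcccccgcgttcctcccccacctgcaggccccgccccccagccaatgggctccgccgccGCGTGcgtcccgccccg

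Among the 6 called members, the 4 that fell each held GCGTG and the 2 that rose held none. Hif1a and Bnip3, which were not called, also held GCGTG, as did 40.8% of the protein-coding genes of the table. The share among all falling or all rising genes was not counted, and elements outside the 300 bases were not searched. The share of G and C in the windows was 72.3% for Epas1, 60.3% for Ndrg1, 66.3% for Ankrd37 and 56.3% for Adm. It was 59% for Car9 and 48% for Egln3, and its part in the matches was not tested. The rising Egln3 held 1 ACGTG, 216 to 212 bases before its start, and the rising Car9 held neither motif. The falling Epas1 held 1 GCGTG, 133 to 129 bases before its start. The falling Ndrg1 held 3 GCGTG, the nearest 14 bases before the start, and the falling Adm held 2 GCGTG, which began 84 and 48 bases before the start. The falling Ankrd37 held 1 ACGTG and 2 overlapping GCGTG on opposite strands. Bnip3, which was not called, had the most matches, with 3 GCGTG and a CACGTG counted on both strands. A match of these letters is a description of the sequence and not a bound site.

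Of the HIF target genes other than Egln3, Adm, Ndrg1 and Ankrd37 fell, Bnip3 was not called and Car9 rose. Adm (chr7:110226858-110229027, plus strand) encodes adrenomedullin, a peptide that relaxes vessels and supports the endothelial barrier. It had 3953 and 3039 normalized counts without tamoxifen and 788 and 544 with it. Both tamoxifen libraries were below both control libraries. Adm fell 5.29-fold, with a log2 fold change of -2.40 (standard error 0.23, limma, BH-adjusted p = 0.000108).

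Ndrg1 (chr15:66801166-66841835, minus strand) encodes a stress-responsive protein that is also needed for myelin upkeep in peripheral nerve. It had 28667 and 29902 normalized counts without tamoxifen and 4325 and 1656 with it. The control libraries were close to each other, whereas the tamoxifen libraries differed widely and both lay below them. Ndrg1 fell 10.9-fold, the strongest fall of the 10 genes, with a log2 fold change of -3.45 (standard error 0.39, limma, BH-adjusted p = 0.000218). Leaving out tamoxifen library 1 moved it to -4.14, and leaving out tamoxifen library 2 moved it to -2.76.

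Ankrd37 (chr8:46449939-46458744, minus strand) encodes a small ankyrin repeat protein and is a HIF-1 target. It had 2245 and 1682 normalized counts without tamoxifen and 489 and 375 with it, which were both lower. Ankrd37 fell 4.53-fold, with a log2 fold change of -2.18 (standard error 0.22, limma, BH-adjusted p = 0.000148). The gene overlaps Ufsp2 and Lrp2bp on the opposite strand. The library kit keeps the strand, but the strand setting of the counting is not stated. Ufsp2 had 941 and 942 normalized counts without tamoxifen and 1020 and 1044 with it, and Lrp2bp had between 27.1 and 54.8 in all libraries.

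Bnip3 (chr7:138490690-138511253, minus strand) encodes a mitochondrial protein that promotes mitophagy. It had 740 and 682 normalized counts without tamoxifen and 939 and 782 with it, which were slightly higher. The log2 fold change was 0.27 with a 95% interval from -0.18 to 0.72 (limma, BH-adjusted p = 0.258). With equal totals it was 0.74 with an adjusted p of 0.00970, and under quantile normalization it was -0.13. Relative to the median of all genes tested, it was at 0.22 under the authors' scaling, 0.22 with equal totals and 0.07 after quantile normalization.

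Car9 (chr4:43506966-43513729, plus strand) encodes carbonic anhydrase 9, a membrane enzyme that handles acid outside the cell and a widely used marker of hypoxic tissue. The control libraries held 1 and 2 reads, or 1.37 and 2.50 normalized counts. The tamoxifen libraries held 417 and 421 reads, or 452 and 303 normalized counts. The gene was under the floor in both control libraries and well above it in both tamoxifen libraries. The ratio of the levels was 185, with an exact 95% interval from 63.0 to 897 that covers counting error only. Car9 passed the filter on low values only through its tamoxifen libraries, so its p-value adds no support beyond these reads. It rose with a log2 fold change of 7.01 (limma, BH-adjusted p = 5.73e-05), a value that depends on the pseudocount and was 7.29 with 0.5 and 5.76 with 5. It was 5.82 under quantile normalization and 7.61 with DESeq2 on the recovered reads. Gm12454, a noncoding gene that overlaps Car9 on the opposite strand, had 0 and 1.25 normalized counts without tamoxifen and 15.2 and 37.4 with it, and without a stated strand setting the reads of these genes cannot be told apart.

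**Figure D2:**
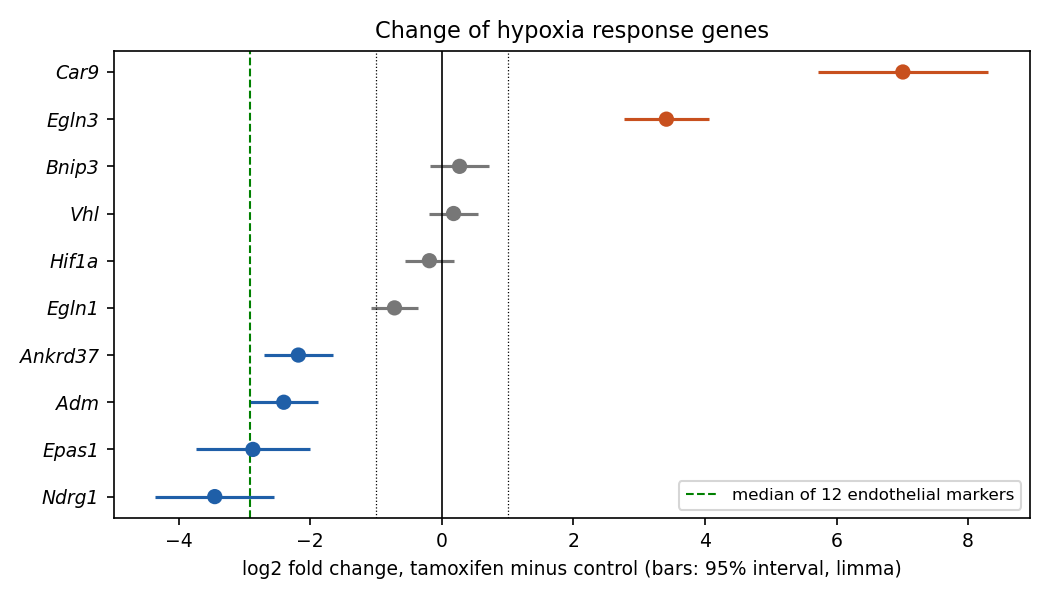
Log2 fold change of each hypoxia response gene, tamoxifen minus control, with 95% intervals from limma as bars. Orange marks genes called higher, blue genes called lower and gray genes not called, dotted lines mark the size limit of 1 in each direction, and the dashed green line marks the median of the 12 endothelial markers at -2.91. Epas1, at -2.87, lies beside that line.

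The levels of the 10 genes were ordered per kilobase of canonical transcript. In the control libraries, the order of mean normalized counts per kilobase was Epas1 (42404), Ndrg1 (9143), Adm (2497), Ankrd37 (2116), Egln1 (1392), Hif1a (814), Vhl (510), Bnip3 (195), Egln3 (31.9) and Car9 (0.957). Adm and Ankrd37 were the only neighbors in this order whose libraries overlapped. In the tamoxifen libraries, the order was Epas1 (5974), Ndrg1 (934), Egln1 (848), Hif1a (715), Vhl (578), Adm (476), Ankrd37 (465), Egln3 (340), Bnip3 (236) and Car9 (187). Here the libraries overlapped between Ndrg1 and Egln1, between Vhl and Adm, between Adm and Ankrd37 and between Bnip3 and Car9. Epas1 held the first place and Car9 the last in both groups, and the levels of the genes between them lay closer together in the tamoxifen libraries.

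The members were also set against the endothelial markers of the same library, a measure that was chosen after the values had been seen and that a single factor per library leaves unchanged. For each 1000 summed counts of the 12 endothelial markers, Epas1 had 170 and 195 counts without tamoxifen and 195 and 238 with it. These groups overlapped, and the log2 difference was 0.24. Ndrg1 had 21.8 and 23.8 without tamoxifen and 20.5 and 15.9 with it, a log2 difference of -0.34. Adm had 3.01 and 2.42 without tamoxifen and 3.73 and 5.21 with it (log2 difference 0.71), and Ankrd37 had 1.71 and 1.34 without tamoxifen and 2.32 and 3.59 with it (log2 difference 0.93). The groups did not overlap for Ndrg1, Adm or Ankrd37. The 4 genes that fell thus differed by less than 1 log2 unit relative to the endothelial markers, but under quantile normalization, an alternative also chosen after the values had been seen, the signs for Adm and Ankrd37 turned (-0.48 and -0.52), with -0.86 for Ndrg1 and 0.37 for Epas1. The other 6 genes all lay higher relative to these markers. The log2 differences were 2.39 for Egln1, 2.92 for Hif1a, 3.29 for Vhl, 3.38 for Bnip3, 6.54 for Egln3 and 10.8 for Car9. Quantile normalization brought these to 1.78, 2.36, 2.29, 2.03, 4.77 and 7.99. The summed markers themselves fell, so a gene at an unchanged level also lies higher on this measure. Before this division Hif1a and Egln1 had log2 fold changes of -0.19 and -0.72. The share of all genes that lie higher relative to the markers was not computed. How much each cell type gave to these values was not tested.

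**Figure D3:**
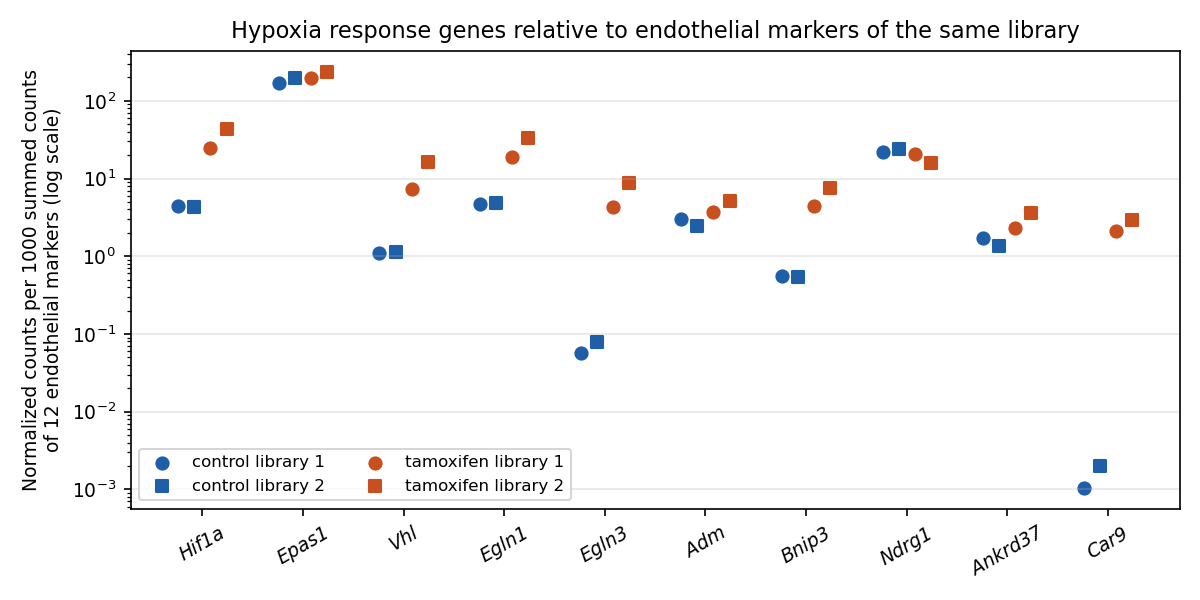
Normalized counts of each hypoxia response gene for each 1000 summed counts of 12 endothelial markers in the same library (log scale), with control libraries in blue and tamoxifen libraries in orange. Only for Epas1 do the groups overlap, Ndrg1, Adm and Ankrd37 differ by less than 1 log2 unit, and Egln3 goes from 0.0563 and 0.0778 to 4.35 and 8.75. The marker sums are lower in the tamoxifen libraries, so a gene at an unchanged level also lies higher here.

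The partners and modifiers of the HIF subunits changed in both directions, with 2 of 8 higher, 1 lower and 5 not called. Over all genes tested, 28.6% were called higher and 16.0% lower. The median log2 fold change of the 8 was -0.40, against 0.05 over all genes tested. Arnt, the common beta subunit, had 6138 and 6177 normalized counts without tamoxifen and 5015 and 4490 with it and was not called (log2 fold change -0.38, limma, BH-adjusted p = 0.0659). Arnt2, its paralog best known from neurons, rose from 174 and 213 to 1700 and 3080 (log2 fold change 3.57, limma, BH-adjusted p = 6.86e-05). Cited2, which competes with HIF for its coactivators, rose from 753 and 915 to 1853 and 1771 (log2 fold change 1.13), and the call was lost under 4 alternatives. Egln2, the third prolyl hydroxylase, fell from 4464 and 5177 to 2416 and 1779 (log2 fold change -1.21) and was not called with equal totals or without tamoxifen library 2. The asparagine hydroxylase gene Hif1an had a log2 fold change of -0.43, the coactivator genes Ep300 and Crebbp -0.56 and -0.94, and Hif3a 0.21, and none of these was called, although Crebbp was called without control library 2 (-1.06). The signs for Arnt and Hif1an turned with equal totals, those for Arnt and Ep300 turned under quantile normalization, and the libraries of Hif3a overlapped between the groups.

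Against 44.7% of all genes tested, none of the 4 further subunits of the VHL ubiquitin ligase was called. Their log2 fold changes were -0.28 for Rbx1, 0.26 for Elob, 0.36 for Eloc and 0.47 for Cul2, the scaffold of the complex, and the sign for Rbx1 turned with equal totals. By the adjusted p alone Cul2 passed (limma, BH-adjusted p = 0.0386). With equal totals the log2 fold changes were 0.73 for Elob, 0.83 for Eloc and 0.94 for Cul2. Vhl and these 4 subunits thus had RNA levels within 0.47 log2 units of the control libraries in the main fit, but not all of them with equal totals.

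The receptor of adrenomedullin is formed by Calcrl with a RAMP protein. Calcrl had 7576 and 5341 normalized counts without tamoxifen and 1141 and 735 with it, and it fell with a log2 fold change of -2.79 (limma, BH-adjusted p = 9.42e-05). Ramp2, the endothelial partner that gives adrenomedullin specificity, fell from 33217 and 39303 to 7674 and 3415 (log2 fold change -2.82, limma, BH-adjusted p = 0.000341). Ramp3 had 355 and 397 without tamoxifen and 214 and 169 with it and was not called (log2 fold change -0.98), but it was called under quantile normalization (-1.96) and without control library 1 (-1.06). Ramp1, which with Calcrl forms the receptor of calcitonin gene-related peptide, rose from 63.0 and 120 to 479 and 679 (6.49-fold higher), and the call was lost when either tamoxifen library was left out. Its log2 fold change was 1.74 under quantile normalization. The ligand gene and both genes of its main endothelial receptor were thus lower in both tamoxifen libraries. The 12 endothelial markers had a median log2 fold change of -2.91, and whether these genes differ from the markers was not tested.

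Other known HIF target genes also differed among themselves. Of 25 such genes, 24 were in the table and tested, of which 11 rose, 3 fell and 10 were not called. The shares over all genes tested were 28.6% called higher and 16.0% called lower. The median log2 fold change of the 24 was 0.89, with a range from -2.60 to 6.35. Hk2, a hexokinase that starts glycolysis, rose from 67.1 and 78.9 to 6831 and 5272 normalized counts (log2 fold change 6.35, limma, BH-adjusted p = 3.37e-06). Lox, which crosslinks collagen, rose from 45.2 and 52.6 to 2855 and 1779 (log2 fold change 5.50, limma, BH-adjusted p = 1.27e-05). Vegfa, the main growth factor of vessels, rose from 348 and 335 to 5586 and 9005 (log2 fold change 4.37, limma, BH-adjusted p = 1.20e-05). Car12, another membrane carbonic anhydrase, went from 4.11 and 27.5 to 315 and 588 (log2 fold change 5.16). It was not called when either tamoxifen library was left out, and it moved to 3.92 without control library 1, which held 3 reads, and to 6.40 without control library 2. In these 4 genes both tamoxifen libraries lay above both control libraries.

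The 3 falling targets were Slc2a1, Tfrc and Ddit4. Slc2a1 encodes the glucose carrier GLUT1, which is highly abundant at the blood-brain barrier. It had 174504 and 185224 normalized counts without tamoxifen and 42145.5 and 20957 with it (log2 fold change -2.60, limma, BH-adjusted p = 0.000921, and -1.47 under quantile normalization). Tfrc, the transferrin receptor gene of the same barrier, had a log2 fold change of -1.27 and was called under 11 of 14 alternatives. Ddit4, an inhibitor of mTOR signaling, had -1.22 and was called under 10 of 14. Tfrc was not called with equal totals, after quantile normalization or without tamoxifen library 2, and Ddit4 was not called in these cases or without tamoxifen library 1.

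**Figure D4:**
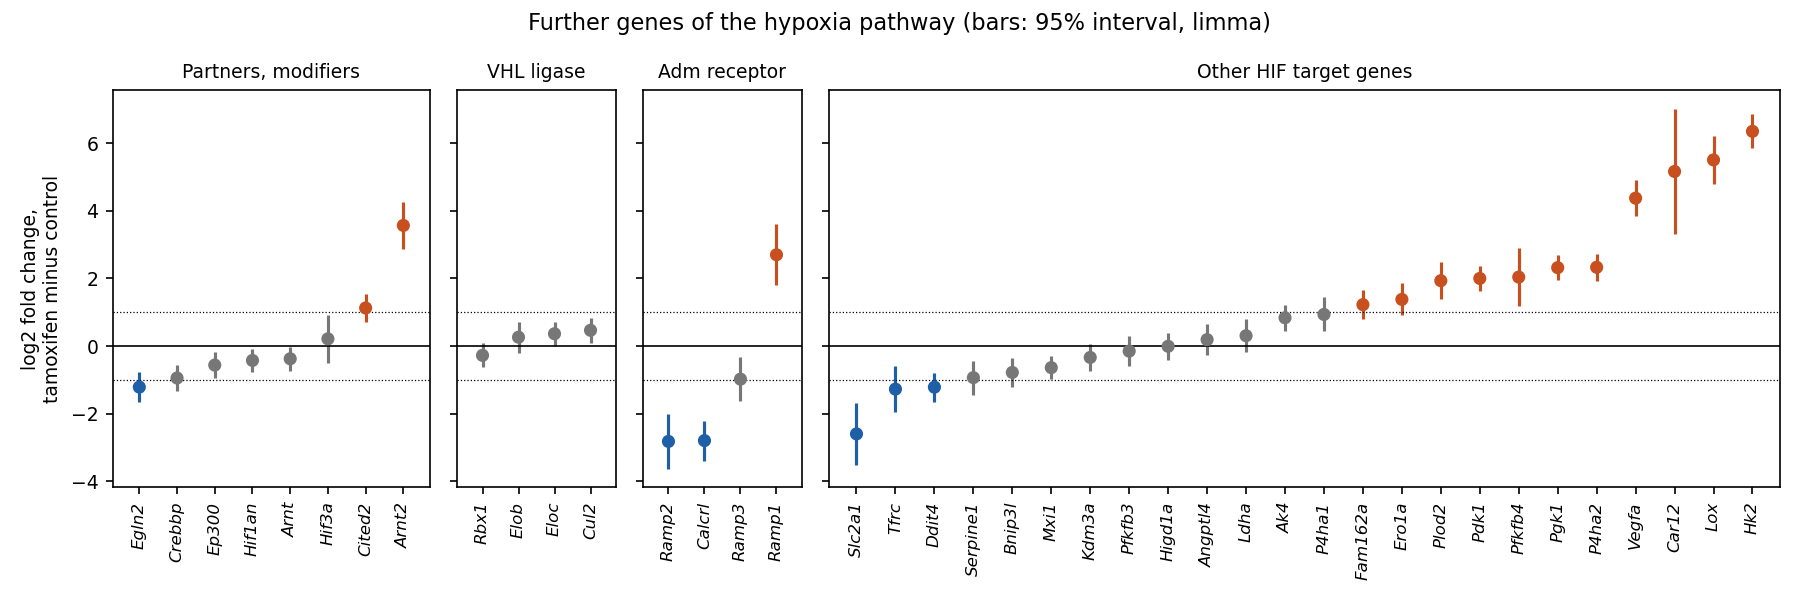
Log2 fold change, tamoxifen minus control, of 40 further genes of the hypoxia pathway, with 95% intervals from limma as bars. Orange marks genes called higher, blue genes called lower and gray genes not called, and the other HIF target genes run from -2.60 for Slc2a1 to 6.35 for Hk2.

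Paralogs of the members were compared where they exist, and 3 of them (Hif3a, Egln2 and Car12) are described above. Of 11 paralogs, 10 were tested, of which 4 rose and 3 fell, beside 28.6% and 16.0% of all genes tested. The NDRG genes moved apart, although Ndrg3 was not called (log2 fold change -0.20). Ndrg2, a marker of astrocytes, rose from 1426 and 3106 to 7675 and 13990.5 normalized counts (log2 fold change 2.30) but was not called when either tamoxifen library was left out. Ndrg4, best known from neurons and heart, rose from 136 and 179 to 1268 and 1659 (log2 fold change 3.21, limma, BH-adjusted p = 5.58e-05, and 2.59 under quantile normalization).

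The carbonic anhydrases moved apart as well. Car4, a membrane enzyme of brain capillaries, fell from 70680 and 75173 to 14220.5 and 6745 normalized counts (log2 fold change -2.90, limma, BH-adjusted p = 0.000283), and Car14 fell with a log2 fold change of -2.32. Quantile normalization brought these to -2.04 and -3.02. Car2, a cytosolic enzyme that is abundant in oligodendrocytes and red cells, rose from 4757 and 5189 to 15244 and 12576 (log2 fold change 1.48, limma, BH-adjusted p = 0.000267). Car4 and Ndrg1 were thus lower while Car9, Car12, Ndrg2 and Ndrg4 were higher in both tamoxifen libraries.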

How the data were processed

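Cdh5cre;Mgpflox/flox mice gave 2 control and 2 tamoxifen libraries of pooled cells. Per the labels' processing notes and the study's methods, STAR 2.7.10a mapped and quantified the reads on GRCm39, the authors then left out low-count genes, and DESeq2 1.36.0 scaled the rest. The deposited table still held 42 genes with 0 reads in all libraries, so such a filter is not seen in it. The annotation release, strand setting and low-count limit are not given in the sources used here. As a unit, the deposited table holds signal for each gene, made of counts divided by a single factor per library, and 100% were multiples of what 1 read is worth (tolerance 0.01), so reads were recovered.

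Columns headed C were taken for control and those headed A for tamoxifen. The labels hold no A.

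Genes were tested in R 4.3.3 with limma 3.58.1, using eBayes with a mean-variance trend. Other settings were a pseudocount of 0.5 or 5, leaving the filter out or raising it to a mean of 100, equal library totals, quantile-normalized values, eBayes without the trend, a block for the replicate number, edgeR 4.0.16, DESeq2 1.42.0 and each library left out. The adjusted p alone was tried for the counts of called genes. The fit was also run on simulated data in which far fewer genes changed than were called here. That run cannot speak to the scaling of the libraries. Locations and lengths came from GENCODE M39, in which 24451 genes matched by symbol. Lengths are of canonical transcripts.

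The members and lists were chosen with earlier results of these data known. All members are named. Further pathway lists of 8 genes or fewer are named in full, and longer ones by up to 4 largest called rises and falls at a mean of at least 100 normalized counts. The rest, and the marker lists, are given by count. Ndrg3 and some markers with few reads are named besides, and alternative fits are not given for these.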

Additional observations from a re-analysis of the deposited data

How the results depend on the processing

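For the 10 hypoxia response genes, 137 of 140 alternative values kept the reported direction and call. The other 3 were reversals of genes that were not called, namely Hif1a at 0.28 with equal totals and 0.20 after quantile normalization, and Bnip3 at -0.13 after quantile normalization. Among the other named genes, equal totals reversed Arnt (0.0945), Hif1an (0.0449), Rbx1 (0.19) and Mgp (0.0786), and quantile normalization reversed Arnt (0.0206) and Ep300 (0.0108). Hif3a ranged from -0.22 without tamoxifen library 2 to 0.646 without tamoxifen library 1, and was at -0.04 without control library 2. Of the 434 values of these other genes, 404 kept direction and call, 19 lost the call and 3 gained it.

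Over all genes tested, 5867 were called higher and 3284 lower, so 64.1% of the calls were higher. With the filter at a mean of 100, which tests fewer genes, 3540 were called higher. With equal totals 1838 were called lower and 79.7% of the calls were higher, and after quantile normalization 5276 were called lower and 47.2% were higher. By the adjusted p alone 5228 were called lower. Leaving out a library, which leaves 1 sample assumed to vary like the other group, gave 2553 to 6163 genes called higher and 1594 to 3537 called lower. Both lowest counts came from leaving out tamoxifen library 2, and without tamoxifen library 1 there were 3030 called higher and 1994 called lower. In an alternative chosen after seeing the data, quantile normalization moved the ratio of Hif1a to Epas1 to 1.997 and that of Egln3 to Egln1 to 2.98 on the log2 scale, and relative to the endothelial markers it reversed Adm (-0.48) and Ankrd37 (-0.52). The causes of these differences were not tested. The counts of members called did not move by over 1.5 times in any alternative.

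Replicate numbers in the labels are shared between groups, but nothing says that equal numbers mark a shared day or litter. With the replicate block 6064 genes were called higher and 3461 lower, and 2 members were called higher and 4 lower. The deviations of equal-numbered libraries had a correlation of 0.0251 over genes, so the numbers were not taken to pair the samples. The ratio given for Car9 rests on 3 reads in all in the control libraries, which limits its precision.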
